A study of Mus musculus with 2 samples.

Results

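The cytosolic ribosomal protein genes were taken as the protein-coding mouse genes whose GENCODE M21 symbol begins with Rpl, Rps or Rplp and a digit. The Rps6k kinases and symbols marked as pseudogenes were left out. Of 349 genes in the tables with such a symbol, 101 were protein-coding, and 85 remained after 10 kinases and 6 symbols ending in -ps were removed. These 85 are among 43346 mouse genes in the tables. They were divided into 76 core members (46 of the large subunit and 30 of the small), 7 paralogs and 2 genes whose products are not standard proteins of the mature ribosome. The 2 are Rps19bp1, which encodes a protein that binds Rps19, and Rpl7l1, a relative of Rpl7.

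The RNA came from the thymus of newborn mice of strain B6NCrl at postnatal day 0, and there was 1 group of 2 libraries with no treatment or mutation. Replicate 1 was made from pup 6 and replicate 2 from pup 7, each from 13 pg of total RNA longer than 200 nt, which the labels equate with 1 cell. The labels also list the same donor for both, so they do not settle whether the 2 pups are separate animals. With 1 library from each pup, pup, RNA handling and library cannot be told apart in the spread between the libraries. The tables held 25999043 expected counts in mouse genes in replicate 1 and 31902773 in replicate 2. Levels are given in TPM, transcripts per 1000000, a measure corrected for transcript length and set here to sum to 1000000 over mouse genes. With 1 group no test between conditions exists, so values are given for each library, as mean ± SD of 2, and as log2 ratios of replicate 1 over replicate 2.

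Each ribosome holds a single copy of nearly every ribosomal protein, the P-stalk proteins excepted, so the genes are known for similar, high and coordinated expression in growing cells. Their mRNAs begin with a run of pyrimidines, the TOP motif, through which the mTOR pathway controls their translation. In the thymus, T cell precursors make up most of the tissue, and loss of Rpl22 in mice is known to block the αβ T cell lineage. T lineage genes were high in both libraries. Lck, the kinase of T cell receptor signalling, had 1424 TPM in replicate 1 and 1403 TPM in replicate 2, and Cd3e, a receptor subunit, had 812 and 633 TPM. Krt8, a keratin of epithelial cells, had 772 and 846 TPM, while Foxn1, the thymic epithelial regulator, was listed at 0 counts in replicate 1 and had 1129 counts in replicate 2. In whole tissue, fewer cells of a type and less RNA per cell cannot be told apart.

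The core genes were among the most abundant messages of the newborn thymus. All 76 had 100 or more counts in both libraries, and 75 had more than 1000 in both. Of all 85 members, 82 had 10 or more counts in both and 3 paralogs (Rpl3l, Rpl10l and Rpl39l) had fewer than 10 in both. Together the 76 core genes held 96344 TPM in replicate 1 and 86040 TPM in replicate 2 (91192 ± 7286, SD, n = 2). That is 9.12% ± 0.729 of mouse TPM. Their share of mouse counts was lower, 4.50% in replicate 1 and 3.63% in replicate 2. Their median length was 669 and 672 bases in the 2 tables, against 2090 and 2163 bases for protein-coding genes averaging 100 or more counts. By mean TPM, 30 core genes were among the 100 highest mouse genes and 69 among the 500 highest. The median core gene had 1112 TPM in replicate 1 and 973 TPM in replicate 2, and 55 and 52 of the 76 lay within 2-fold of that median.

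**Figure D1:**
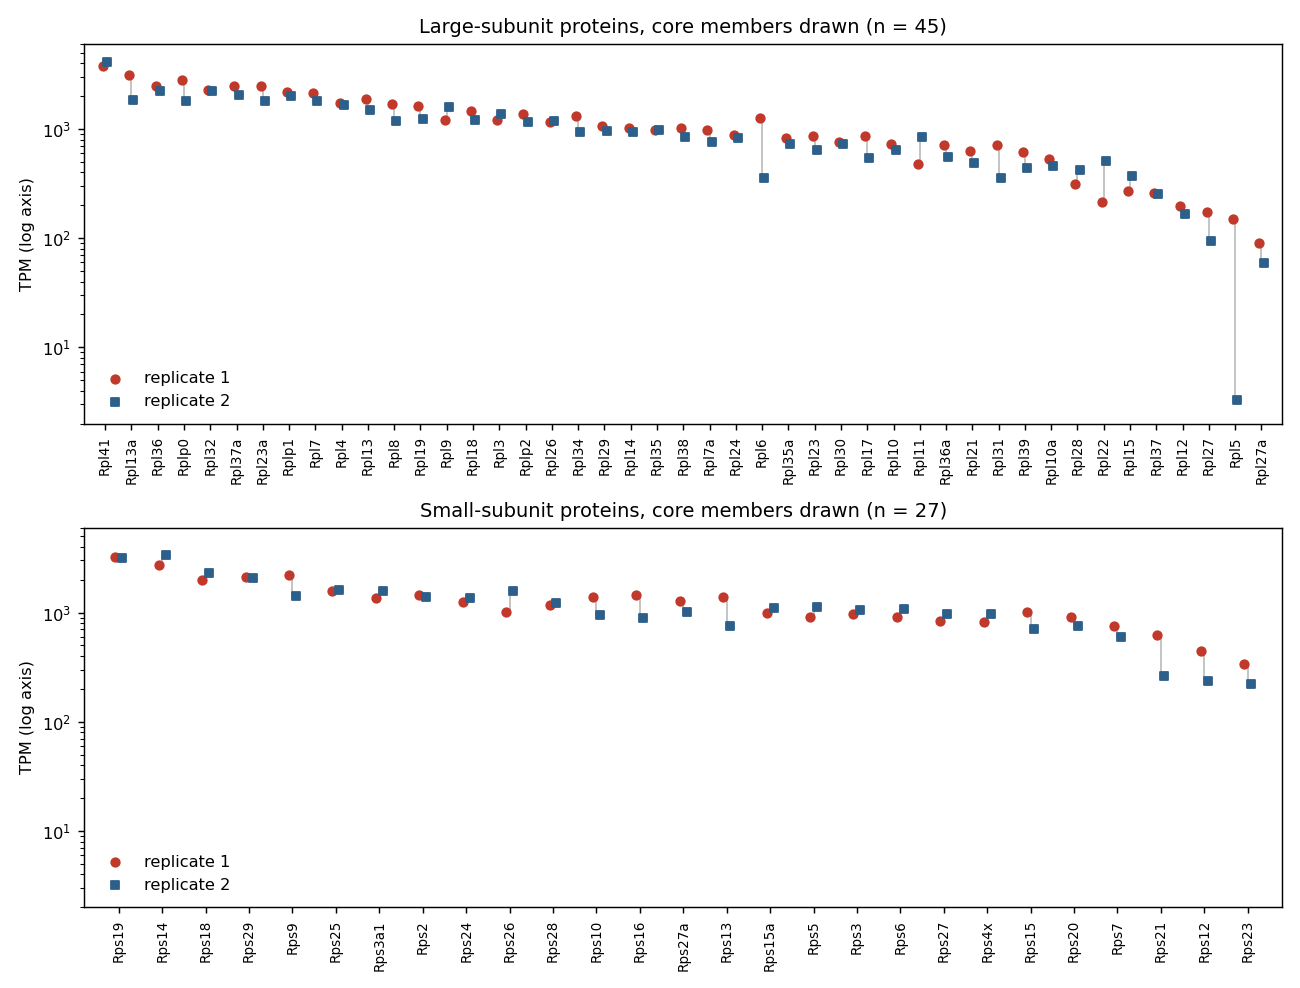
TPM (log axis) of core genes in replicate 1 (red circles) and replicate 2 (blue squares), 45 of the 46 large-subunit genes above and 27 of the 30 small-subunit genes below, ordered by mean TPM. Most genes lie near 1000 TPM with their 2 points close together, and Rpl5 has the widest gap, 150 TPM in replicate 1 and 3.29 TPM in replicate 2.

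The large-subunit genes were led by Rpl41, with 3806 TPM in replicate 1 and 4102 TPM in replicate 2. It ranked 18 among all mouse genes by mean TPM. Rpl41 (ENSMUSG00000093674, chr10:128548114-128549305, minus strand, GRCm38) encodes the smallest ribosomal protein, a peptide of 25 residues. Its coding sequence is shown because its composition is extreme: 17 of its 25 codons specify lysine or arginine (68%), and these are in capitals in the sequence from GENCODE M21.
Rpl41: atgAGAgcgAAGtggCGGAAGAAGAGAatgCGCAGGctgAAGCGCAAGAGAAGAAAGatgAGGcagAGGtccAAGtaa

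Behind Rpl41 came Rpl13a, which is also known in human cells for silencing inflammatory mRNAs outside the ribosome. It had 3138 TPM in replicate 1 and 1855 TPM in replicate 2. Rpl36 followed with 2469 and 2203 TPM, Rplp0 with 2780 and 1791 TPM, Rpl32 with 2272 and 2244 TPM, and Rpl37a with 2476 and 2038 TPM. Rpl23a, a docking point for nascent-chain factors at the tunnel exit, had 2499 and 1801 TPM, and Rplp1 had 2173 and 1995 TPM. These 8 were the highest large-subunit genes by mean. Of them, Rpl32 differed least between the libraries and Rpl13a most (SD 908 TPM).

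The 5 lowest large-subunit genes lay far from these. Rpl27a had 89.7 TPM in replicate 1 and 59.8 TPM in replicate 2. Rpl5 had 150 TPM in replicate 1 and 3.29 TPM in replicate 2. Rpl27 had 174 and 95.1 TPM, Rpl12 196 and 167 TPM, and Rpl37 257 and 252 TPM. Rpl5 and Rpl27a were the lowest pair, and Rpl5 alone was near 0 in a library. These values leave out the annotated copies described further on.

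The small-subunit genes were led by Rps19, with 3224 TPM in replicate 1 and 3134 TPM in replicate 2. Rps19 is the gene most often mutated in Diamond-Blackfan anaemia, a failure of red cell production in people. Rps14, a platform protein beside the mRNA exit, had 2724 and 3374 TPM. Rps18 had 1977 and 2320 TPM, Rps29 2136 and 2063 TPM, and Rps9 2201 and 1408 TPM. Rps25, used by several viral internal ribosome entry sites, had 1588 and 1603 TPM. The 5 lowest were Rps23 at 335 and 223 TPM, Rps12 at 440 and 238 TPM, Rps21 at 623 and 265 TPM, Rps7 at 756 and 603 TPM, and Rps20 at 910 and 750 TPM. Even the lowest small-subunit gene was above the lowest 4 large-subunit genes in both libraries. These levels leave out the annotated copies described further on. With copies added, Rps23 had 2332 TPM in replicate 1 and 1584 TPM in replicate 2. The 4 large-subunit genes then had 706 to 1541 TPM in replicate 1 and 685 to 1166 TPM in replicate 2.

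Without annotated copies, the large subunit had the lower median and the wider range. Its median was 1021 TPM in replicate 1 and 889 TPM in replicate 2, against 1237 and 1092 TPM for the small subunit. The ratio of large to small medians was 0.826 in replicate 1 and 0.814 in replicate 2 (0.820 ± 0.00809, SD, n = 2). With annotated copies added it was 0.882 and 0.849. Because it has more genes, the large subunit held the larger sum, 56433 and 48094 TPM against 39911 and 37946 TPM for the small subunit. The SD of log2 TPM among large-subunit genes was 1.26 in replicate 1 and 1.67 in replicate 2, against 0.71 and 0.94 among small-subunit genes. These SDs leave out annotated copies. Over all core genes the SD was 1.09 in replicate 1 and 1.45 in replicate 2, and with copies added 0.79 and 0.81. The SD of each subunit with copies added was not computed. Genes of 1 library are not replicates, so the difference between the subunits carries no test.

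Counts in the role groups that follow are to be read against the background between the libraries. Among the 9341 mouse genes averaging 100 or more counts, 67.7% passed 2-fold, and 4388 were higher in replicate 1 and 4953 in replicate 2. At a mean of 500 TPM or more, where most members lie, 7.81% of 320 genes passed 2-fold, and 203 were higher in replicate 1 and 117 in replicate 2. These 320 include the 64 core genes at that level. Shares of small groups near these values say nothing about the groups.

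Among members grouped by role, the P-stalk genes were high in both libraries. The P-stalk recruits translation factors to the large subunit. Rplp0, its base, and Rplp1, given above, were joined by Rplp2 at 1357 TPM in replicate 1 and 1151 TPM in replicate 2. All 3 were above the large-subunit median in both libraries. The genes of the 5S particle, which carries 5S rRNA and can bind the p53 regulator Mdm2, went opposite ways. Rpl5 was lower in replicate 2, while Rpl11 had 480 TPM in replicate 1 and 847 TPM in replicate 2 (log2 ratio −0.82).

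Around the exit of the peptide tunnel, 6 of 7 genes were higher in replicate 1, as were 54 of the 76 core genes. The median log2 ratio of the 7 was 0.47. Rpl31 was the only one past 2-fold (7.81% at 500 TPM or more), with 710 TPM in replicate 1 and 352 TPM in replicate 2. Rpl35 was level, at 973 and 971 TPM. Rpl26, the 1 gene higher in replicate 2, had 1163 and 1195 TPM. Rpl19 had 1637 and 1227 TPM, Rpl17 861 and 537 TPM, and Rpl39 619 and 435 TPM.

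Along the mRNA path of the small subunit, none of 6 genes passed 2-fold, where 7.81% did at 500 TPM or more, and 4 were higher in replicate 2. Rps2, at the mRNA entry, had 1438 TPM in replicate 1 and 1378 TPM in replicate 2. Rps3, also at the entry, had 960 and 1063 TPM. Rps26, at the mRNA exit, had 1005 and 1576 TPM (log2 ratio −0.65). Rps28, its neighbour, had 1184 and 1235 TPM. Rps23, a decoding-centre protein, was the low gene of this group in both libraries, though with copies added it had 2332 and 1584 TPM.

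Among the members, 19 are known as Diamond-Blackfan anaemia genes in people, in whom loss of 1 copy is reported. Their median was 988 TPM in replicate 1 and 974 TPM in replicate 2, against 1112 and 973 TPM for all core genes. Rpl5 and Rpl31 were the 2 of the 19 that passed 2-fold (10.5%, against 67.7% of all genes tested and 7.81% at 500 TPM or more). With the annotated copies described further on added, neither did (log2 ratios 0.42 and 0.29). Erythroid RNA differed between the libraries: Hbb-bs, a beta-globin gene, had 859 TPM in replicate 1 and 2273 TPM in replicate 2. Its part in any difference among these genes was not tested. Rps24, another of the 19, had 1255 and 1362 TPM, and Rps10 had 1391 and 956 TPM.

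Rps27a makes a small-subunit protein fused to ubiquitin and had 1275 TPM in replicate 1 and 1020 TPM in replicate 2. The symbol pattern misses 4 ribosomal proteins of similar level. Among them, Fau, a fusion of a ubiquitin-like protein to a small-subunit protein, had 923 and 672 TPM. Rpsa, of the small subunit, had 1201 and 793 TPM, and Rack1, a small-subunit scaffold for signalling proteins, 985 and 1038 TPM.

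Paralogs are further genes for the same or a closely related protein, and several are known from particular tissues. The 3 paralogs known from muscle or testis were not detected or nearly so. Rpl3l, the striated muscle form of Rpl3, had 0 counts in replicate 1 and 2 in replicate 2, while Rpl3 had 1198 and 1369 TPM. Rpl10l and Rpl39l, known from the testis, had 0 counts in both libraries, while Rpl10 had 722 and 635 TPM. By counting error alone, at 95% confidence, a count of 0 allows up to 3 counts. That is 0.0292% and 0.0289% of the counts of the Rpl10 pair, and 0.0483% and 0.0582% of those of the Rpl39 pair. The floor does not cover RNA lost before sequencing from 13 pg of input. Foxn1 also had 0 counts in replicate 1, but 1129 in replicate 2. Muscle RNA itself was present. Ckm, the muscle creatine kinase, had 129 TPM in replicate 1 and 9.41 TPM in replicate 2, and Actc1, cardiac actin, had 513 and 95.2 TPM.

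**Figure D2:**
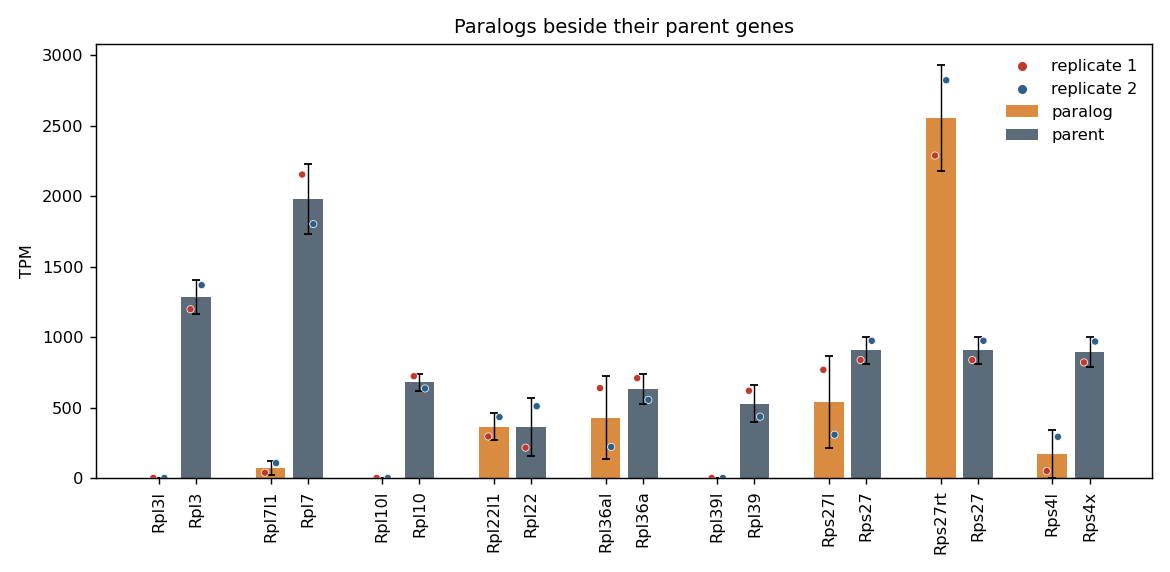
Mean TPM of each paralog (orange) and its parent gene (grey) with the SD of 2 libraries as error bars and replicate 1 (red) and replicate 2 (blue) as points. Rpl3l, Rpl10l and Rpl39l sit at 0 or nearly so, the mean bar of Rpl22l1 is level with that of Rpl22, and Rps27rt stands above Rps27.

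By the mean share of TPM over all transcripts, Rpl22l1 was the paralog most nearly level with its parent. In replicate 1 alone, Rps27l (47.8% of its pair) and Rpl36al (47.4%) were nearer to level. Rpl22l1 had 295 TPM in replicate 1 and 432 TPM in replicate 2, against 215 and 509 TPM for Rpl22. Its share of the pair was 57.8% in replicate 1 and 45.9% in replicate 2 (51.9% ± 8.40, SD, n = 2). In TPM over all transcripts, which of the 2 genes was higher therefore changed between the libraries. Transcripts annotated as protein-coding held 54.6% of Rpl22l1 TPM in replicate 1 and 57.6% in replicate 2. For Rpl22 they held 99.9% and 97.5%, so the shares of the pair are not shares of coding RNA. In expected counts, which are not corrected for length, Rpl22l1 had 2667 and 3942, against 2849 and 6046 for Rpl22, so Rpl22 was higher in both. Rpl22 (ENSMUSG00000028936, chr4:152325742-152334071, plus strand) and Rpl22l1 (ENSMUSG00000039221, chr3:28805436-28807424, plus strand) encode proteins of 128 and 121 residues that are 70.3% identical over the alignment. Both genes were higher in replicate 2 (log2 ratios −0.55 for Rpl22l1 and −1.24 for Rpl22). In the dominant Rpl22 transcript, no stretch of 100 bases occurs in another gene.

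Rpl36al and Rpl36a encode the same protein of 106 residues from coding sequences that are 87.9% identical. Rpl36al had 638 TPM in replicate 1 and 220 TPM in replicate 2, against 708 and 554 TPM for Rpl36a. The paralog was thus 47.4% of the pair in replicate 1 and 28.4% in replicate 2. Rps27l, known in mice and people as a p53 target, had 768 TPM in replicate 1 and 307 TPM in replicate 2, against 837 and 974 TPM for Rps27. Both Rpl36al and Rps27l passed 2-fold between the libraries, and neither parent did. Over all genes tested 67.7% passed 2-fold, and at 500 TPM or more 7.81% did. Rpl36al, with a mean of 429 TPM, is under that level.

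Rps27 has another close relative, Rps27rt, which is annotated without introns. Their coding sequences are shown because they decide how far the genes can be told apart. The coding sequences of Rps27rt (chr9:114982366-114982739, minus strand) and Rps27 (chr3:90212522-90213651, minus strand) are identical over all 255 bases. Rps27l (chr9:66946086-66949516, plus strand) differs from Rps27 at 61 bases, in capitals below, yet its 84 residues differ at only 3.
Rps27 and Rps27rt: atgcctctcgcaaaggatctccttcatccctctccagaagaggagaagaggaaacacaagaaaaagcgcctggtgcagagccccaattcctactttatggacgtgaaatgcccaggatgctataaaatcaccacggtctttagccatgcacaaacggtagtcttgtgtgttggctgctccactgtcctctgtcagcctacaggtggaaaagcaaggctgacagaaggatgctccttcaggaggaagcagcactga
Rps27l: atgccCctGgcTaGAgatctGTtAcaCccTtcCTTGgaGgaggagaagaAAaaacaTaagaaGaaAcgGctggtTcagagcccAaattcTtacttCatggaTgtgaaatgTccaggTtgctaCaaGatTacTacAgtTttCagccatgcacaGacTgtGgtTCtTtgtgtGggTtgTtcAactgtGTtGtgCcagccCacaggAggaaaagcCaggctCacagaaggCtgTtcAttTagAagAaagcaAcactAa

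Rps27rt had 2288 TPM in replicate 1 and 2823 TPM in replicate 2, which was 73.2% and 74.4% of its pair with Rps27. In GENCODE M21, 89.5% of the 100-base stretches of Rps27rt and 98.4% of those of Rps27 occur in another gene. The deposited tables give the Rps27 transcript a length of 255 bases, its coding length alone, where M21 gives 345, and they give Rps27rt 370 bases. The division of reads between these 2 genes is therefore uncertain, and their sum is the firmer value, 3126 TPM in replicate 1 and 3797 TPM in replicate 2. No 100-base stretch of Rps27l occurs in another gene.

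On the X chromosome, Rps4x had 820 TPM in replicate 1 and 969 TPM in replicate 2. Its relative Rps4l, a transcribed processed pseudogene in M21 and so not counted among the 85, had 48.7 and 292 TPM. Rpl7l1 had 37.1 and 106 TPM, or 1.69% and 5.53% of its pair with Rpl7. Rps19bp1 had 138 TPM in replicate 1 and 2.72 TPM in replicate 2, from 2057 and 46 counts, the largest difference of any member.

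Between the 2 libraries, the core genes differed far less often than genes at large. A log2 ratio past 1 in size was reached by 5 of 76 core genes (6.58%), against 67.7% of all genes tested. A ratio past 4-fold was reached by Rpl5 alone, against 50.9% of those genes. Part of that gap goes with level: among the 320 mouse genes at a mean of 500 TPM or more, 7.81% passed 2-fold, and of the 64 core genes at that level 2 did. The 320 include those 64 core genes, so their share is not one of other genes alone. At that level 3.1% of core genes passed. With only 2 genes past the line, no difference from the background is read. The mitochondrial ribosomal protein genes, with a median of 93.5 TPM in replicate 1 and 89.5 TPM in replicate 2, had 44 of 73 past 2-fold (60.3%), and the translation factors 23 of 63 (36.5%).

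**Figure D3:**
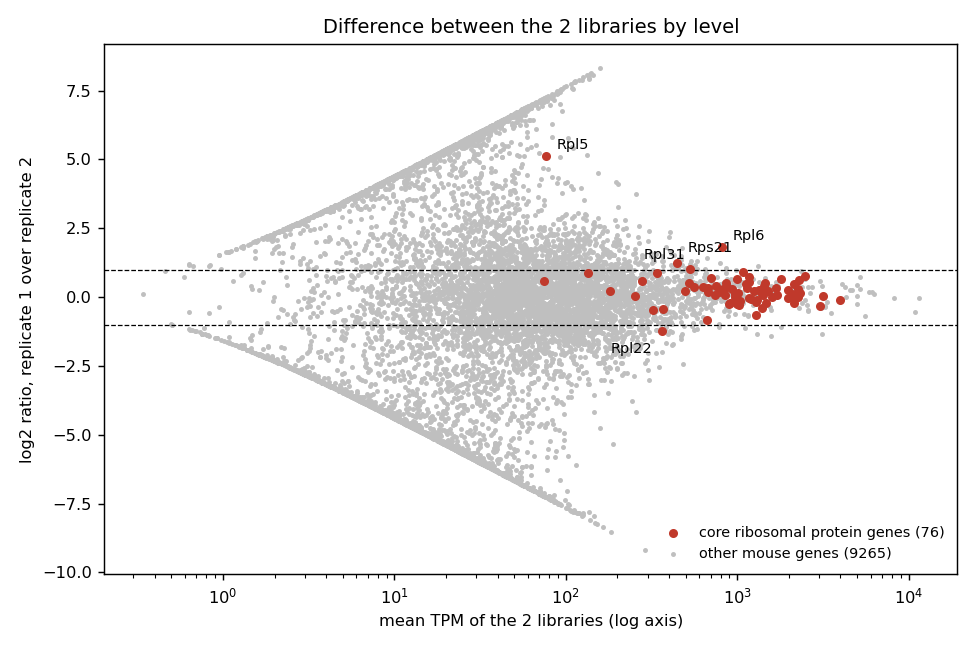
Log2 ratio of replicate 1 over replicate 2 against mean TPM (log axis) for the 76 core genes (red) and the other 9265 mouse genes averaging 100 or more counts (grey), with dashed lines at 2-fold. The red points lie at the high end in a narrow band, and the 5 named genes lie outside the lines.

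Of the 5, 4 were higher in replicate 1, where the background was 29.7% over all genes tested and 5% at 500 TPM or more. Only Rpl6 and Rpl31 of the 4 averaged 500 TPM or more, so the second share does not cover Rpl5 and Rps21. Rpl5 had 2756 counts in replicate 1 and 117 in replicate 2 (log2 ratio of TPM 5.13). Rpl6, a surface protein of the large subunit, had 1264 TPM in replicate 1 and 358 TPM in replicate 2 (1.82). Rps21 had 623 and 265 TPM (1.23), and Rpl31 had a log2 ratio of 1.01. Rps13, with 1402 and 753 TPM, fell just inside the line (0.90).

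Rpl22 was the 1 core gene past 2-fold and higher in replicate 2, where the background was 38% over all genes tested and 2.81% at 500 TPM or more. Its mean of 362 TPM is under 500, so the second share does not cover its level. After Rpl22, in the same direction, came Rpl11, Rps26, Rpl15 and Rpl28. Rpl15 had 270 TPM in replicate 1 and 373 TPM in replicate 2, and Rpl28 had 312 and 424 TPM. The median log2 ratio over core genes was 0.20, against −0.17 over all genes tested and 0.13 over genes at 500 TPM or more. It was 0.23 for the large subunit, of whose genes 38 were higher in replicate 1 and 8 in replicate 2. For the small subunit it was 0.05, with 16 and 14. Over all genes at 500 TPM or more, core genes included, the same counts were 203 and 117, and over all genes tested 4388 and 4953.

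Many of the low core genes have near-identical copies elsewhere in the genome to which reads were assigned. A copy was counted when 50% or more of its 31-base stretches occur in a coding transcript of the core gene, a definition chosen after the levels were seen. There were 248 such copies of 63 core genes, 234 of them annotated as pseudogenes, and 184 were read in both libraries. Rpl21 had the most, 15. The copies held 25131 TPM in replicate 1 and 22526 TPM in replicate 2, which was 20.7% of the TPM of genes and copies together in each library. Reads from a gene and an identical copy cannot be told apart, so these shares are the authors' estimates and not measures of transcription at the copies.

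Copies exceeded the gene itself in both libraries for 10 core genes, 8 of the large subunit and 2 of the small. Among them are Rpl5, Rpl12, Rpl15, Rpl27, Rpl27a, Rpl28, Rpl35, Rps12 and Rps23. For Rpl5, the pseudogene Gm15500 (chr7:114705217-114706235, minus strand) had 1339 TPM in replicate 1 and 1109 TPM in replicate 2, and 99.9% of its 31-base stretches occur in Rpl5. With its copies Rpl5 had 1491 and 1115 TPM, a log2 ratio of 0.42 in place of 5.13. The highest copy of Rps23, Rps23-ps1 (chr3:37714740-37715164, plus strand), had 1993 and 1360 TPM, against 335 and 223 TPM for Rps23.

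**Figure D4:**
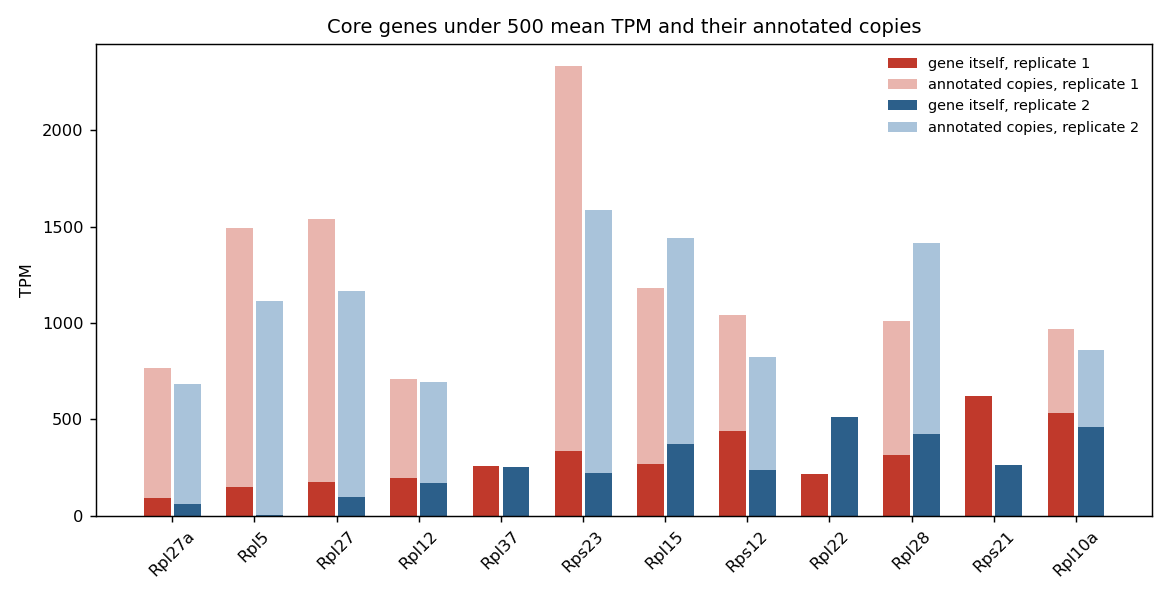
TPM of the 12 core genes under a mean of 500 TPM (dark) with their annotated copies stacked above (pale), replicate 1 in red and replicate 2 in blue. In 8 of the 12 the pale part is the larger in both libraries, while Rpl22, Rpl37 and Rps21 have none.

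Of the 12 core genes under a mean of 500 TPM, 8 had copies above them in both libraries, and with copies added only Rpl22, Rpl37 and Rps21 stayed under 500. Rpl37 has a relative, Rpl37rt, whose shared part is under the 50% line and which had 787 and 765 TPM. With copies added, the SD of log2 TPM over core genes was 0.79 in replicate 1 and 0.81 in replicate 2, against 1.09 and 1.45 for the genes alone. With copies the highest was 20.5 times the lowest in replicate 1 and 17.7 times in replicate 2, against 42.4 and 1247 times for the genes alone. With copies added, 3 core genes passed 2-fold: Rpl6, Rps21 and Rpl22. The authors' posterior SD was 5% of the count or less in both libraries for 74 of 76 core genes, the exceptions being Rps27 (5.06% in replicate 1) and Rpl5 (11.9% in replicate 2).

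Most core genes were represented by 1 main transcript. In 19 of the 76 the tables list 1 transcript, which fixes the result. Of the other 57, the same transcript was highest in both libraries for 54, the exceptions being Rpl5, Rpl15 and Rpl29. The median share of the highest transcript over those 57 was 82.6% in replicate 1 and 88.7% in replicate 2, and over all 76 it was 90.8% and 96.5%. Transcripts annotated as protein-coding held 89.6% and 91.1% of core TPM, and those annotated as retained introns 3.60% and 2.80%. The highest transcript was annotated as protein-coding for 70 of the 76 in replicate 1 and 71 in replicate 2. Rps20 was among the exceptions, with 93.6% of its TPM in a retained-intron transcript in replicate 1 and 94.2% in replicate 2. Rpl12 was led by a transcript annotated for nonsense-mediated decay, at 55.4% and 85.3%. Rpl13a was led by a transcript absent from M21, at 39.9% and 41.8%. For Rpl35 the main transcript was a noncoding processed transcript, at 88.7% and 88.8%. Rpl5 had 94.0% of its TPM in retained-intron transcripts in replicate 1 and 13.9% in replicate 2. These shares leave out reads assigned to its copies, which had 1341 and 1111 TPM, against 150 and 3.29 TPM for Rpl5. They rest on 2756 counts in replicate 1 and 117 in replicate 2, where the posterior SD was 11.9% of the count. Whether intron retention in Rpl5 differed between the libraries was therefore not tested. Rps24, whose last exons are spliced in alternative ways, was divided between 2 coding transcripts, the main one at 78.1% and 73.1%.

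Some of the core genes also shared features of sequence and position that their choice did not use. The 76 lay on 19 chromosomes. Small nucleolar RNA genes, which guide rRNA modification, lay inside 29 of the 76 (38.2%) on the same strand, 56 in all. Among protein-coding genes averaging 100 or more counts, 169 of 8594 had one (1.97%). Rpl4 held 5 and Rpl13a held 4.

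Long pyrimidine runs at the start site were more frequent than in other genes, a description that carries no test. The longest run of C and T on the sense strand overlapping bases −5 to +5 of the start was read at the RefSeq start nearest to the dominant transcript (GRCm38.p6), which 56 core genes had. Runs of 8 or more bases were found in 20 of the 56 (35.7%), against 9.53% of 6802 other protein-coding genes averaging 100 or more counts and 9.38% of all 32851 promoters in the table. The median run was 5.5 bases, against 3 in other genes. Where the RefSeq start lay within 10 bases of the dominant transcript's start, 4 of 19 core genes had a run of 8 or more (21.1%), against 9.46% of 2580 other genes. At the first 5 bases of the dominant M21 transcript, a measure added later, 11 of 76 core genes had a run of 8 or more (14.5%), against 3.38% of other genes, and the medians were 2.5 and 2 bases. The RefSeq starts were a median of 25 bases from the start of the dominant transcript, so many windows miss its first base.

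**Figure D5:**
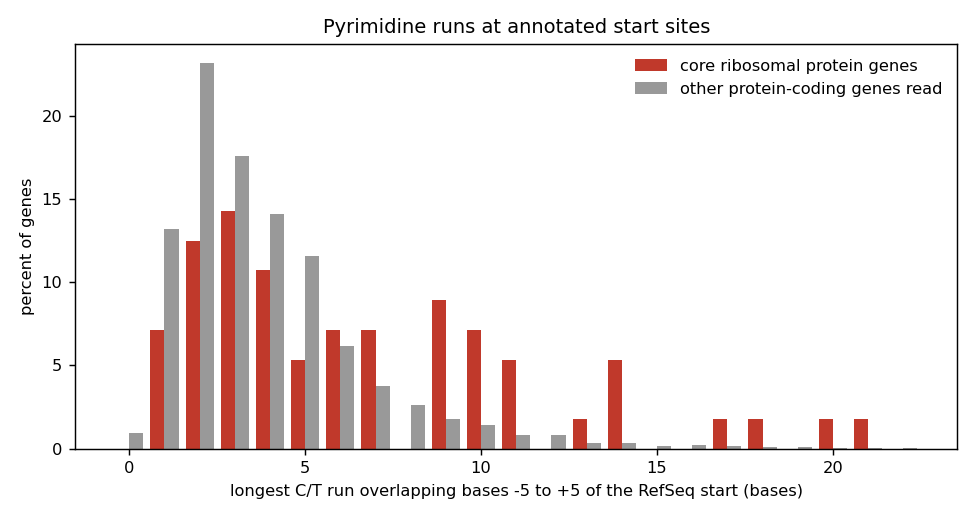
Percent of genes by the length of the longest C and T run at the RefSeq start, for 56 core genes (red) and 6802 other protein-coding genes (grey), drawn up to 22 bases. The grey bars peak at 2 bases, and the red bars reach to 21.

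The windows of the 4 longest runs, and of Rpl22l1, Rpl22, Rpl41 and Rps19 for contrast, are given from 10 bases before the RefSeq start to 20 from it. The run is in capitals, and where it is longer than its capitals it extends past the window.
Rpl7a, chr2:26910797-26910826, plus strand: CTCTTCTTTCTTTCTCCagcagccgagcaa
Rpl27a, chr7:109519185-109519214, plus strand: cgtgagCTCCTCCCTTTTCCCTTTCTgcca
Rpl35, chr2:39005112-39005141, minus strand: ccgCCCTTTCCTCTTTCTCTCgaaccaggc
Rpl15, chr14:18270967-18270996, minus strand: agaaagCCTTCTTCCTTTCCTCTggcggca
Rpl22l1, chr3:28805498-28805527, plus strand: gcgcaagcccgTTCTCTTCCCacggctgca
Rpl22, chr4:152325716-152325745, plus strand: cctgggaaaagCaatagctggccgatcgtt
Rpl41, chr10:128549149-128549178, minus strand: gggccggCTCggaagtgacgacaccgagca
Rps19, chr7:24884903-24884932, plus strand: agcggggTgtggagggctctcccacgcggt

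The runs were 21 bases in Rpl7a, 20 in Rpl27a, 18 in Rpl35 and 17 in Rpl15. Rpl22l1 had 10, against 1 in Rpl22, and their RefSeq starts lie 39 and 127 bases from the starts of their dominant transcripts. Rpl41 and Rps19, the highest genes of their subunits, had 3 and 1, and the RefSeq start of Rps19 is 100 bases from that of its dominant transcript.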

How the data were processed

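RNA of 2 newborn mouse thymus libraries was analysed from gene and transcript tables. Per the file headers, the deposited tables list, by gene and transcript, TPM and an expected count that need not be whole, with the posterior mean and SD of the count. They also give an isoform percent, the authors' share of a gene's transcripts. The assembly was mm10, per the labels, and the annotation M4, per the deposited notes. Aligner and counting program: not given in the sources used here. The tables' effective length is 99 bases under their length.

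Gene IDs were matched without version to GENCODE M21 (GRCm38), and 42462 of 43346 matched. TPM was rescaled to 1000000 over mouse genes. Each ratio set replicate 1 over replicate 2 on the log2 scale after adding 1 TPM, for genes averaging 100 or more expected counts. No test was made, since both libraries form 1 group. Floors cover counting error only.

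Copies were found from 31-base stretches and shared reads from 100-base stretches of M21 transcripts. Coding sequences were aligned with Biopython 1.88, and start windows come from RefSeq. For edgeR 4.0.16 and DESeq2 1.42.0 scaling, expected counts were rounded.

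The members and lists were chosen with earlier results of these data known. Named genes are all paralogs and parents, list members, the 8 highest and 5 lowest core genes of each subunit, the 5 with the largest ratio each way and members under 10 counts; some are not reported or drawn here. Other genes named (copies, transcript exceptions, Rpl21, Rpl32 and similar) were chosen after their values were seen. Alternatives were other estimates, pseudocounts, scalings, filters, member sets and single libraries.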

Additional observations from a re-analysis of the deposited data

How the results depend on the processing

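No paired analysis was possible because both libraries belong to 1 group. The count of 5 core genes past 2-fold was 4 with a pseudocount of 10 TPM, edgeR TMM or DESeq2 size factors. It was 1 at 4-fold, 9 over all members and 3 with copies sharing 20%, 50% or 90% added. The ratio of large to small medians, 0.820, was 0.745 over all members, 0.874 from mean TPM, 0.847 from expected counts and 0.865 with copies of 50% added. The mean SD of log2 TPM, 1.27, was 1.73 over all members read, 1.08 without Rpl5, and 0.75, 0.80 and 0.80 with copies of 20%, 50% and 90%. The settings with copies and the one without Rpl5 were chosen after seeing the data. Pseudogenes named for core genes held 7.43% ± 0.368 of counts and 10.3% of TPM. The cause of these shifts was not tested. The median log2 ratio stayed above 0 under every alternative run, between 0.13 and 0.21. Each library alone gave 86040 to 96344 for the summed TPM, 0.814 to 0.826 for the subunit ratio, 5.61% to 23.2% for the median paralog share over 9 pairs, 1.09 to 1.45 for the spread, 7.17% to 7.69% for the pseudogene share of counts and 90.8% to 96.5% for the dominant transcript. Those 9 pairs include Rps4l and Rpl7l1, and their median is the Rps4l share, 14.4%; over the 7 paralogs among the members, a choice made after seeing the data, it was 35.7%. With expected counts in place of TPM, the paralog was 57.5% of the Rps27l pair and 12.4% of the Rpl7l1 pair. Counts of core genes exceeded 1000 in both libraries for all but Rpl5. Among all mouse genes averaging 1000 or more counts, 56.0% passed 2-fold, against 5 of 76 core genes. That filter does not match TPM level. At a mean of 500 TPM or more, 7.81% of 320 genes passed, 2 of the 64 core genes among them. Precision beyond read counting was not measured, and it is limited by 2 libraries of 13 pg each and by shared sequence.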
